A study of Lactuca sativa with 20 samples.

Results

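The hormone treatments ABA and ACC were set directly against each other in whole lettuce seedlings (*Lactuca sativa*, Little Gem). The comparison took in all libraries with either hormone alone, 3 with 10 µM ABA and 3 with 10 µM ACC, of 20 libraries in the series. Seedlings were 4 days old, had grown on MS medium in constant light at 22 °C, and spent 2 h in the treatment solution. The groups used beside these 6 libraries were 10 µM CLE12p with 10 µM ABA (3 libraries), 10 µM CLE12p with 10 µM ACC (3), 10 µM CLE12p alone (3), 0.02% ethanol (2) and water (3). CLE12p is the peptide that the series title ties to the gene LsCLE12 and to senescence. The design text lists a mix of ABA and ACC, whereas the library labels give that group as the peptide plus ACC, which is how it is treated here. No label says whether replicates were separate batches of seedlings, so p-values measure only the spread between these libraries, which may be technical. Nor do the labels say which control was the solvent of which hormone.

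ABA (abscisic acid) is the plant hormone of drought and dormancy. Its receptors block a set of protein phosphatases, which frees kinases that activate transcription factors at ABA response elements. ACC is the direct precursor of ethylene and is converted to it by ACC oxidase. Ethylene silences its receptors in the endoplasmic reticulum, after which the EIN family of transcription factors builds up and switches on ethylene response genes. Both hormones promote leaf senescence, whereas in Arabidopsis seeds ethylene counters the block that ABA puts on germination.

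Reads had been counted for 37828 gene models, and 23413 of them passed the filter on low counts and were tested. Library totals were 20636520, 21914328 and 21076877 counts for ABA, and 24257323, 27101622 and 26579217 for ACC. The ABA libraries together held 81.6% of the counts of the ACC libraries. Libraries of one hormone differed from each other by a median of 0.140 to 0.147 log2 CPM per gene for ABA and 0.146 to 0.151 for ACC (CPM, counts scaled to a common library size). Every ABA library differed from every ACC library by more, 0.253 to 0.279. Of the 37828 identifiers, 0 matched a name in the reference gene table, so genes are given by identifier, no roles are assigned to them, and markers of tissues or cell types could not be looked up. Whole seedlings mix many cell types, and a lower level from fewer cells of a type cannot be told apart from less RNA per cell.

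ABA and ACC seedlings differed in 5559 genes, 23.7% of those tested (edgeR quasi-likelihood test, adjusted p below 0.05). Of these, 2676 genes (11.4% of those tested) were higher in ABA and 2883 (12.3%) were lower. DESeq2 called 5856 genes, and 5522 were called by both tools in the same direction, which is 99.3% of the edgeR calls. In 2644 of the 2676 higher genes and 2848 of the 2883 lower genes the 3 ABA libraries did not overlap the 3 ACC libraries. Across all genes tested 42.7% showed no overlap, 4994 genes with ABA higher and 5014 with ABA lower. The same libraries made the calls, so the lack of overlap is a description. Over all genes the median log2 fold change was -0.0029, with quartiles at -0.23 and 0.21.

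Most differences were small, and the large ones were mainly genes lower in ABA. Called genes had a median change of 1.57-fold. The genes higher in ABA had a median log2 fold change of 0.59 (quartiles 0.40 and 0.96) and those lower in ABA one of -0.72 (quartiles -1.38 and -0.42). Below a 1.5-fold change the calls were close to even, with 1318 genes higher and 1201 lower in ABA. At 2-fold or more, 630 genes were higher and 1063 lower, so that 37.2% of these 1693 calls were higher in ABA. At 4-fold or more there were 204 higher and 405 lower genes, and at 16-fold or more 48 and 70. The share of higher genes among the 2-fold calls lay between 36.1% and 39.6% without any 1 of the 6 libraries and was 37.4% with DESeq2 size factors.

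**Figure D1:**
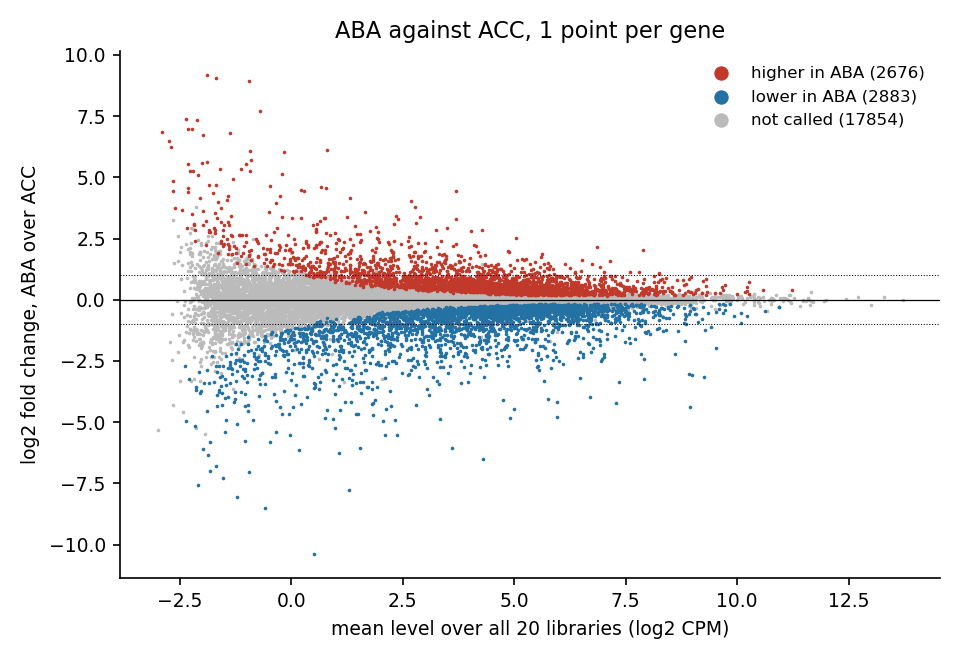
Each point is 1 of 23413 genes, with its mean level over all 20 libraries (log2 CPM) on the x axis and its log2 fold change of ABA over ACC on the y axis; dotted lines mark a 2-fold change. The 2676 genes higher in ABA (red) and 2883 lower in ABA (blue) are close in number, but the blue points reach further from 0 among genes with many reads.

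Among 2-fold calls, genes lower in ABA outnumbered higher ones in each class of read number up to 1000 CPM, by the largest ratio at 100 to 1000 CPM and by the largest number at 10 to 100 CPM. CPM is not corrected for gene length, so these classes order genes by reads rather than by transcripts. Of 1842 genes with a mean of 100 to 1000 CPM, 550 were called (29.9%), and at 2-fold or more 12 of them were higher and 70 lower in ABA. Of 11083 genes at 10 to 100 CPM, 3151 were called (28.4%), with 149 higher and 333 lower at 2-fold or more. Of 7475 genes at 1 to 10 CPM, 1555 were called (20.8%), with 346 higher and 495 lower at that size. Of 2933 genes under 1 CPM, 288 were called (9.82%), all of them at least 2-fold, with 123 higher and 165 lower. Among the 80 genes above 1000 CPM, 15 were called and 0 reached a 2-fold change. Genes with few reads need a large change to pass the test, so the shares called are not comparable as sizes of response.

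Genes that differed took a sizeable part of each library. The 2676 genes higher in ABA held 15.6 ± 0.272% of the counts in ABA and 10.7 ± 0.209% in ACC (SD, n = 3 each), and the 2883 lower genes held 10.4 ± 0.0966% in ABA and 16.6 ± 0.0913% in ACC. These libraries chose the genes, so the shares are a description. In libraries that entered the fit but not this contrast, the genes higher in ABA held 14.1 ± 0.655% with CLE12p and ABA and 10.9 ± 0.361% with CLE12p and ACC. The lower genes held 12.3 ± 0.956% with CLE12p and ABA and 17.2 ± 0.548% with CLE12p and ACC.

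A small number of called genes had 0 counts in all 3 libraries of ABA alone or of ACC alone. In 11 genes called higher in ABA the ACC libraries held 0 counts, against sums of 10 to 211 counts over the 3 ABA libraries. In 12 genes called lower in ABA the ABA libraries held 0 counts, against sums of 13 to 582 over the 3 ACC libraries. In the controls these sets of genes differed at the median, but their ranges overlapped. The 11 genes without ACC reads had a median of 4 counts over the 5 control libraries (0 to 25), so most were barely detected there as well. The 12 genes without ABA reads had a median of 40 (2 to 370). In CLE12p with ABA against CLE12p with ACC, where 10.4% of all genes tested were called higher and 11.7% lower, 9 of the 11 were called higher and 8 of the 12 lower. At most 3 counts were found for 8 of the 11 with CLE12p and ACC, and for 6 of the 12 with CLE12p and ABA. These genes were picked for 0 counts in one group. They could pass the filter on low counts only through other groups, those with CLE12p among them, so the counts are a description. A sum of 0 over 3 libraries limits a level only to about 3 counts, and this limit covers counting error only.

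Lsat_1_v5_gn_2_118601 had the highest fold change among genes that met the rule for naming. It stood at 114, 88.9 and 96.6 CPM in the ABA libraries, against 4.32, 4.38 and 5.04 CPM in the ACC libraries. The groups were far apart and each was tight. Its log2 fold change was 4.44 ± 0.175 (SE; adjusted p = 1.05e-13). Its 5 control libraries lay between 4.21 and 8.76 CPM, close to the ACC libraries, and it passed the test for ABA against ethanol (log2 fold change 4.32; adjusted p = 6.60e-12) and, as a decrease, for ACC against water (-0.70; adjusted p = 0.0213). Against ethanol and water pooled, the decrease with ACC was not called (-0.41; adjusted p = 0.152).

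Lsat_1_v5_gn_3_93020 differed for the other reason that a direct comparison allows, a low level in ACC. It stood at 6.79, 6.35 and 6.10 CPM in ABA, against 0.0832, 0.748 and 0.224 CPM in ACC. The ABA libraries overlapped the controls, which ranged from 4.08 to 6.63 CPM, while the ACC libraries lay far below them. The log2 fold change was 4.14 ± 0.394 (SE; adjusted p = 5.45e-08). The ACC libraries held 2, 20 and 6 counts, and without ACC replicate 2 the value was 5.30. ABA against ethanol gave 0.19 (adjusted p = 0.824), and ACC against water gave -3.81 (adjusted p = 3.70e-06).

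Lsat_1_v5_gn_1_91241 and Lsat_1_v5_gn_5_60700 had the lowest fold changes among called genes whose log2 CPM averaged 1 or more, with no overlap between the hormone libraries. This leaves out genes with fewer reads, some with lower fitted values. Lsat_1_v5_gn_1_91241 had 0, 0 and 3 counts in the ABA libraries, against 234, 348 and 310 counts in the ACC libraries. Reads were thus nearly absent with ABA, and present in every control library (141 to 161 counts). By the counts summed over each group and scaled to depth, it was 243-fold lower in ABA. The 95% interval, 82.8 to 1179, covers counting error only. The fitted log2 fold change, -7.78 (adjusted p = 1.89e-11), depends on the 3 counts in ABA and was -11 without ABA replicate 3, which held them. Lsat_1_v5_gn_5_60700 had the smallest p of all genes tested. It stood at 0.765, 0.585 and 1.17 CPM in ABA, against 72.7, 86.8 and 73.4 CPM in ACC (log2 fold change -6.52 ± 0.168, SE; adjusted p = 6.99e-17). Its controls, at 59.8 to 68.6 CPM, lay near the ACC libraries, and ABA against ethanol gave -6.25 (adjusted p = 3.82e-16) where ACC against water gave 0.28 (adjusted p = 0.122).

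**Figure D2:**
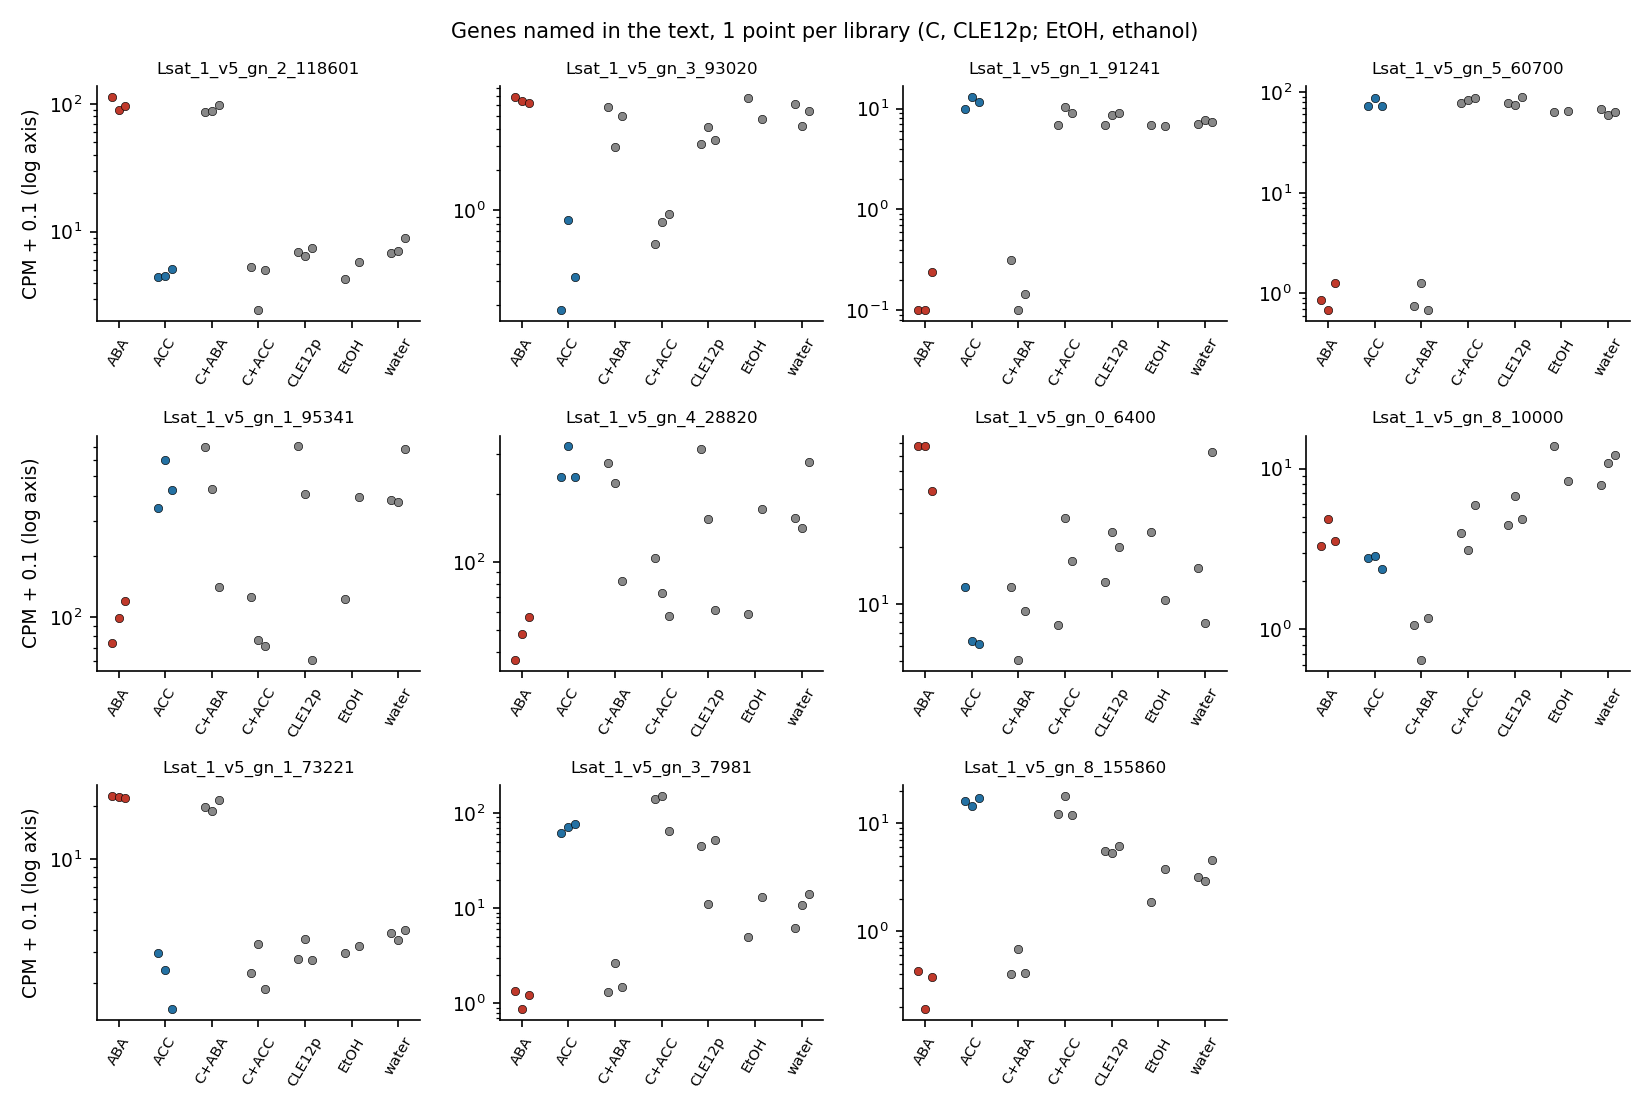
CPM of each library (points; CPM + 0.1 on a log axis) in the 7 groups for the 11 genes given by identifier, with ABA in red, ACC in blue and the other groups in grey. Lsat_1_v5_gn_5_60700 lies at 0.585 to 1.17 CPM in ABA and at 72.7 to 86.8 CPM in ACC, and its CLE12p with ABA and CLE12p with ACC libraries lie beside them; the genes of the middle row differ between the libraries with and without CLE12p.

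Where the difference arose was read from each hormone's comparison with a control, ABA against ethanol and ACC against water. This pairing was chosen here, since the labels do not give it. These 2 comparisons share no library with each other, but each shares its hormone libraries with ABA against ACC, so the values below describe the called genes and test nothing further. In the genes higher in ABA than in ACC, ABA against ethanol had a median log2 fold change of 0.33 and ACC against water one of -0.22. In the genes lower in ABA the medians were -0.38 for ABA against ethanol and 0.26 for ACC against water. Over all genes tested they were -0.0039 and -0.0071. In both lists the medians of the 2 hormones thus had opposite signs, with the larger one for ABA.

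Of the 2676 genes higher in ABA than in ACC, 931 (34.8%) were called higher in ABA than in ethanol, where 5.15% of all genes were. In 500 (18.7%) ACC was lower than water, where 3.12% of all genes were. Of the 2883 genes lower in ABA, 1027 (35.6%) were called lower in ABA than in ethanol (5.01% of all genes) and 789 (27.4%) were called higher in ACC than in water (4.98% of all genes). Neither ABA against ethanol nor ACC against water was called in 2626 genes, 47.2% of the ABA to ACC calls. Their median log2 fold changes against the controls were small and opposed. They were 0.21 for ABA against ethanol and -0.20 for ACC against water in the 1356 such genes higher in ABA, and -0.25 and 0.20 in the 1270 lower ones. These counts changed with the control used. With ethanol and water pooled for both hormones, ABA was called higher in 49.9% of the 2676 genes and lower in 50.4% of the 2883. Over all genes these shares were 8.26% and 7.82%. ACC was called lower in 24.8% of the 2676 and higher in 35.7% of the 2883, against 3.86% and 6.43% of all genes. ABA was then called, in these directions, in 383 of the 1356 genes and 358 of the 1270. For ACC the numbers were 186 and 197. ABA against ethanol called 2378 genes in all and ACC against water 1895, fewer than the direct comparison, and the reason was not tested.

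**Figure D3:**
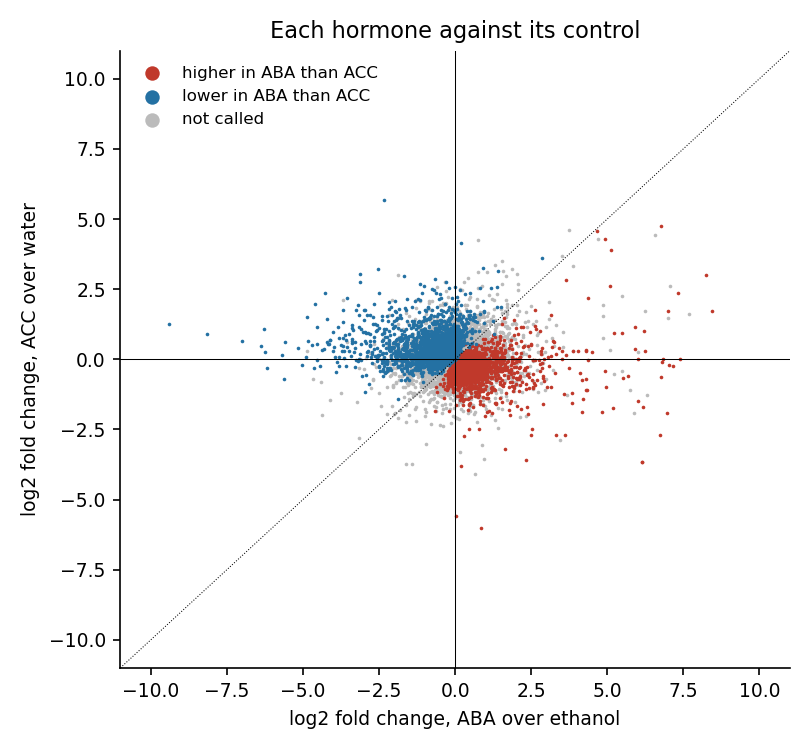
Each point is 1 of 23413 genes, with the log2 fold change of ABA over ethanol on the x axis and that of ACC over water on the y axis; the dotted line marks equal values. Genes called higher in ABA than in ACC (red, 2676) lie below the line and genes called lower (blue, 2883) above it. Many of them lie close to the centre, where neither of these comparisons was called.

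Of the 23413 genes tested, the hormones moved 314 in opposite directions, relative to ethanol for ABA and to water for ACC. Of them, 111 were up with ABA and down with ACC, and 203 were down with ABA and up with ACC. All 314 were also called for ABA against ACC, which uses the same hormone libraries, so this overlap is a description. In the 203, the median log2 fold change was -0.99 for ABA against ethanol and 0.79 for ACC against water. In the 111 it was 0.64 for ABA against ethanol and -0.50 for ACC against water. Another 208 genes were moved the same way by both, 157 up and 51 down, and of the 157 that rose with both, 43 were higher in ABA than in ACC and 10 lower. The number of opposed genes depended on single libraries, of controls and of ACC, and on the choice of control. It was 195 without ethanol replicate 2, 196 without water replicate 1, 202 without ACC replicate 3, and 554 with ethanol and water pooled as the control of both.

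Lsat_1_v5_gn_2_118601, given above, led the genes up with ABA against ethanol and down with ACC against water, and Lsat_1_v5_gn_1_73221 followed. With ethanol and water pooled, the fall with ACC was not called for Lsat_1_v5_gn_2_118601 (adjusted p = 0.152). For Lsat_1_v5_gn_1_73221 it was still called (-0.65; adjusted p = 0.0438). Lsat_1_v5_gn_1_73221 stood at 22.9, 22.6 and 22.2 CPM in ABA, against 2.83, 2.25 and 1.31 CPM in ACC (log2 fold change 3.41 ± 0.205, SE; adjusted p = 4.57e-11). Its control libraries lay at 2.85 to 3.86 CPM, so that the rise with ABA (2.91; adjusted p = 1.31e-08) was larger than the fall with ACC (-0.79; adjusted p = 0.0280). The genes down with ABA and up with ACC showed wider differences. Lsat_1_v5_gn_3_7981 stood at 1.24, 0.765 and 1.13 CPM in ABA, against 61.4, 70.6 and 76.2 CPM in ACC (-6.05 ± 0.570, SE; adjusted p = 4.57e-08). Its controls lay between these, at 4.93 and 13.0 CPM in ethanol and 6.15, 10.7 and 14.1 CPM in water. Lsat_1_v5_gn_8_155860 stood at 0.335, 0.0900 and 0.282 CPM in ABA (7, 2 and 6 counts), against 16.1, 14.3 and 17.0 CPM in ACC (-6.05 ± 0.342, SE; adjusted p = 1.88e-11). It too lay between in the controls, at 1.79 and 3.69 CPM in ethanol and 2.86 to 4.49 CPM in water.

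Control libraries, which entered the fit but not the contrast that called these genes, lay between the hormones and nearer to ACC. The genes were chosen for a difference between ABA and ACC, which by itself favours other groups lying between them. The positions are therefore a description. On a scale per gene from 1 at the ABA mean to 0 at the ACC mean (log2 CPM), the median position over the 5559 called genes was 0.42 for ethanol (quartiles 0.15 and 0.70) and 0.38 for water (0.12 and 0.64). CLE12p alone lay nearer to ACC than either control, at a median of 0.21 (quartiles -0.037 and 0.46). In the genes lower in ABA it lay at 0.17, against 0.43 for ethanol and 0.39 for water. In the genes higher in ABA it lay at 0.26, against 0.41 and 0.37. Among the 2-fold calls higher in ABA the medians were close, at 0.225 for CLE12p, 0.245 for ethanol and 0.26 for water. Among those lower in ABA they were 0.128, 0.384 and 0.327. In 78.5% of the called genes CLE12p was closer to ACC than to ABA. For ethanol this share was 57.6% and for water 63.0%.

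**Figure D4:**
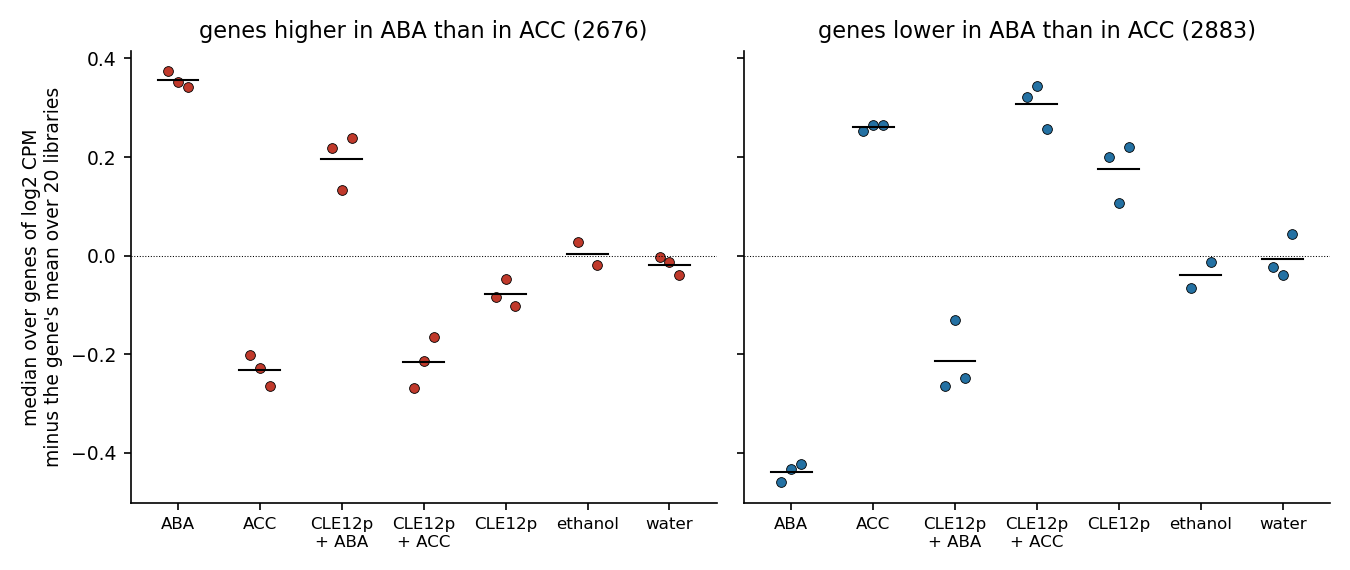
Each point is 1 library and each bar a group mean; the y axis is the median over genes of log2 CPM minus the gene's mean over the 20 libraries, for the 2676 genes called higher (left) and the 2883 called lower (right) in ABA than in ACC. In the left panel the ABA libraries lie at 0.34 to 0.37 and the ACC libraries at -0.26 to -0.20, and the CLE12p with ABA libraries (0.13 to 0.24) lie above the CLE12p with ACC libraries (-0.27 to -0.17); the right panel shows the opposite order.

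A solvent difference would enter the direct comparison if ABA had been dissolved in ethanol and ACC in water. Ethanol against water called 0 genes in edgeR and 0 in DESeq2, with 1251 and 1261 genes at an unadjusted p below 0.05. Its median log2 fold change was 0.02 in the genes higher in ABA and -0.028 in those lower in ABA, with quartiles at -0.096 and 0.13 and at -0.15 and 0.082. The part of the solvent in the ABA to ACC difference was not tested by these medians, since the labels do not tie a solvent to a hormone. In an adjusted contrast, ABA was first set against ethanol and ACC against water (ABA minus ethanol, minus ACC minus water), a pairing chosen here. It called 2672 genes (11.4%), 1218 higher and 1454 lower. Of these, 2582 were ABA to ACC calls in the same direction, which is 96.6% of the adjusted calls and 46.4% of the direct ones. This contrast carries the spread of 4 groups, ethanol with 2 libraries among them. With ethanol and water exchanged, 3224 genes were called (13.8%), 1495 higher and 1729 lower.

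The same contrast of hormones was available in seedlings that also received CLE12p, in 6 libraries that share none with ABA against ACC. CLE12p with ABA against CLE12p with ACC called 5192 genes (22.2%), 2444 higher (10.4%) and 2748 lower (11.7%). Of the ABA to ACC calls, 3237 were called there in the same direction, 1452 higher and 1785 lower. They make up 58.2% of the 5559 calls without CLE12p and 62.3% of the 5192 calls with it. A further 49 genes were called in both in opposite directions. The sign alone was kept by 91.2% of the 5559 genes, where 67.9% of all genes tested had the same sign in both. Across the 23413 genes the fold changes of the 2 contrasts had a Pearson r of 0.73 and a Spearman rho of 0.54, as a description over genes measured in the same libraries.

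Genes that the hormones had moved in opposite directions were called again most often with CLE12p. Of the 203 genes down with ABA and up with ACC, 200 (98.5%) were called lower again, and of the 111 in the opposite pattern 107 (96.4%) were called higher again. Among genes that ABA alone had moved the shares were 80.8% of 777 higher genes and 83.6% of 805 lower genes. Where ACC alone had been called, they were 54.1% of 388 genes higher and 65.8% of 576 genes lower in ABA than in ACC. Where neither had been called, they were 34.7% of 1356 and 40.6% of 1270. The classes also differed in the size of the difference, with median log2 fold changes of ABA over ACC of -1.79 and 1.07 in the opposed classes and -0.51 and 0.48 where neither hormone was called, and the part of size in these shares was not tested.

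The 7 genes named above were called in the same direction with the peptide. Lsat_1_v5_gn_5_60700 stood at 0.653, 1.18 and 0.578 CPM with CLE12p and ABA, against 78.5, 82.9 and 86.8 CPM with CLE12p and ACC. Its log2 fold change there was -6.68, next to -6.52 without the peptide. With and without the peptide, the values were 4.44 and 4.44 for Lsat_1_v5_gn_2_118601, 3.09 and 3.41 for Lsat_1_v5_gn_1_73221, and -6.13 and -6.05 for Lsat_1_v5_gn_3_7981. Lsat_1_v5_gn_3_93020 had 2.71 with the peptide and 4.14 without, Lsat_1_v5_gn_8_155860 had -5.11 and -6.05, and Lsat_1_v5_gn_1_91241, with few ABA reads in either background, had -6.52 and -7.78. For these 7 genes the test of the difference between the 2 values gave adjusted p from 0.259 to 0.999, which does not show that the values were equal.

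Sizes with and without the peptide cannot be ranked from the lists, since each list was chosen on the values of one contrast. In the 5559 genes called without CLE12p, the median log2 fold change in the direction called was 0.47 with CLE12p and 0.65 without. In the 5192 genes called with CLE12p it was 0.64 with CLE12p and 0.495 without. Each list was thus larger in the contrast that chose it.

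**Figure D5:**
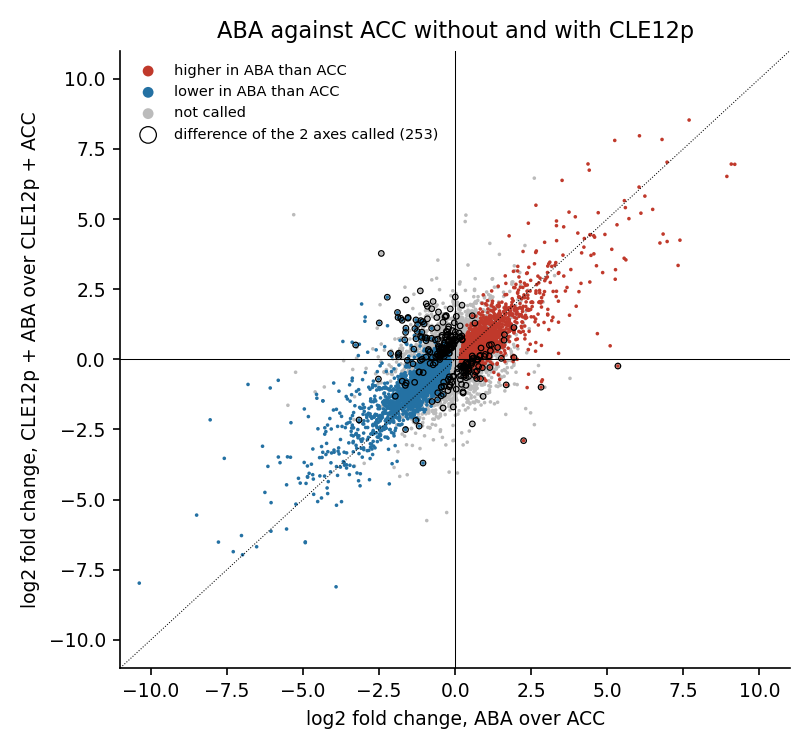
Each point is 1 of 23413 genes, with the log2 fold change of ABA over ACC on the x axis and that of CLE12p with ABA over CLE12p with ACC on the y axis; the dotted line marks equal values and black rings mark the 253 genes called for the difference between the axes. Coloured genes, called without CLE12p, mostly keep their sign with it (91.2%), and many of the ringed genes lie in the quadrants of opposite sign.

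A test of the difference itself found 253 genes (1.08%) in which the ABA to ACC contrast differed with and without CLE12p, 156 above 0 and 97 below (edgeR, adjusted p below 0.05). In 175 of them the fold change had opposite signs in the 2 contrasts, and 48 were called in both in opposite directions. The contrast was larger with CLE12p in 132 of the 253 and smaller in 121. This count was not stable. It was 11, 42 and 72 without ABA replicates 1, 2 and 3, and 110, 23 and 81 without ACC replicates 1, 2 and 3. It was 161, 48 and 432 without CLE12p with ABA replicates 1, 2 and 3, and 491, 63 and 45 without CLE12p with ACC replicates 1, 2 and 3. The 156 genes above 0 had a median level, as log2 CPM minus the mean over all libraries, of 0.38, 0.40 and 0.019 in the CLE12p with ABA libraries and -0.29, -0.37 and -0.36 in the CLE12p with ACC libraries. In groups outside the contrast it was 0.36, 0.13 and -0.18 with CLE12p alone, -0.33 and 0.098 in ethanol, and 0.10, 0.091 and 0.19 in water. CLE12p alone and ethanol thus spread widely and water did not. The 97 genes below 0 spread less there, at -0.0098 to 0.10 with CLE12p alone, 0.19 and -0.040 in ethanol, and -0.033 to 0.0044 in water. Within the 4 hormone groups the median SD per gene was 0.173 log2 CPM for the 253 genes and 0.172 for all genes tested, and in the other groups 0.201 and 0.18. What part such variation between libraries has in the 253 calls was not tested.

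Lsat_1_v5_gn_8_10000 was the named gene whose call held without any 1 of the 12 libraries. It stood at 0.958, 0.543 and 1.07 CPM with CLE12p and ABA, against 3.87, 3.01 and 5.83 CPM with CLE12p and ACC. Without the peptide it stood at 3.21, 4.77 and 3.43 CPM in ABA, against 2.66, 2.77 and 2.28 CPM in ACC. The hormones were thus apart with the peptide (-2.30 ± 0.319; adjusted p = 1e-05) and close without it (0.57 ± 0.276; adjusted p = 0.152), a difference of -2.87 ± 0.424 (SE; adjusted p = 0.00664). All 4 groups lay below its 5 control libraries, at 7.76 to 13.7 CPM.

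The other genes named for this difference rested on libraries that varied widely. Lsat_1_v5_gn_1_95341 stood at 698, 430 and 141 CPM with CLE12p and ABA, against 126, 76.6 and 71.4 CPM with CLE12p and ACC. Without the peptide the order was reversed, with 74.1, 99.1 and 120 CPM in ABA, against 347, 601 and 427 CPM in ACC (difference 4.44 ± 0.846, SE; adjusted p = 0.0186). Its CLE12p libraries alone ran from 61.0 to 704 CPM and its ethanol libraries were at 123 and 393 CPM. Lsat_1_v5_gn_4_28820 followed the same pattern, at 272, 222 and 82.5 CPM with CLE12p and ABA and 104, 73.0 and 57.6 CPM with CLE12p and ACC, and, without the peptide, at 36.8, 48.1 and 57.1 CPM in ABA and 237, 324 and 238 CPM in ACC (difference 3.79 ± 0.664, SE; adjusted p = 0.0152). Lsat_1_v5_gn_0_6400 showed the opposite, at 12.2, 4.98 and 9.11 CPM with CLE12p and ABA and 7.65, 28.3 and 16.7 CPM with CLE12p and ACC, and, without the peptide, at 67.3, 67.2 and 38.9 CPM in ABA and 12.2, 6.32 and 6.05 CPM in ACC (difference -3.82 ± 0.799, SE; adjusted p = 0.0271). One of its 3 water libraries, at 62.6 CPM, lay far above the other two, at 15.3 and 7.82 CPM. The call of Lsat_1_v5_gn_1_95341 was lost without any one of ABA replicates 1 and 2, ACC replicate 2, and replicates 2 and 3 of CLE12p with ACC (adjusted p from 0.0560 to 0.0727), and that of Lsat_1_v5_gn_4_28820 without ABA replicate 1 (0.0584). That of Lsat_1_v5_gn_0_6400 was lost without any one of ABA replicates 1 and 2, ACC replicates 2 and 3, replicate 2 of CLE12p with ABA, and replicates 2 and 3 of CLE12p with ACC (adjusted p from 0.0585 to 0.0881).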

How the data were processed

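The authors deposited whole-number read counts for each gene model, 1 column per library (20 libraries). The submitters' processing notes name STAR 2.7.10a. Counting tool, strand setting, genome build and annotation: not given in the sources used here, so reads of near-identical copies, antisense partners or overlapping genes cannot be told apart. Of 37828 identifiers, 0 matched the 51651 genes of the reference table (Lsat_Salinas_v11). No libraries of a group were duplicates (chi-square over degrees of freedom 3.59 to 24.9 per pair).

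The test was edgeR 4.0.16 under R 4.3.3 (filterByExpr, minimum count of 10; TMM factors from 0.961 to 1.03; 7 group means fitted to all 20 libraries; quasi-likelihood tests, two-sided; Benjamini-Hochberg adjustment over 23413 genes; calls at an adjusted p below 0.05; common biological coefficient of variation 0.117). DESeq2 1.42.0 was an alternative. Levels are CPM from TMM-scaled library sizes. A standard error is the size of the log2 fold change over the root of its F statistic. List medians and positions use log2 CPM with a prior count of 2. The steps were checked on simulated counts. The simulated libraries held no shifts of single libraries, so this check does not bear on calls that depended on single libraries.

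Named genes are, among calls whose log2 CPM averaged 1 or more, the 2 highest and 2 lowest fold changes for ABA against ACC (hormone libraries not overlapping), for the difference with CLE12p (whether or not libraries overlapped), and among genes moved in opposite directions by the hormones. The comparison, lists and rules were chosen with earlier results of these data known.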

Additional observations from a re-analysis of the deposited data

Results flagged for a closer look

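The contrast of ABA over ACC differed with and without CLE12p in 253 genes by the test of that difference. Among the genes named by rule, the difference of the log2 fold changes (with CLE12p minus without) was 4.44 for Lsat_1_v5_gn_1_95341, 3.79 for Lsat_1_v5_gn_4_28820, -3.82 for Lsat_1_v5_gn_0_6400 and -2.87 for Lsat_1_v5_gn_8_10000. No group held 4 or more libraries, so single libraries were not tested for standing apart.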

How the results depend on the processing

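Under DESeq2 size factors, no filter, a minimum count of 50, the DESeq2 test, a fit of only the libraries compared, and without any 1 library compared, the counts for ABA against ACC (4380 to 7186), its 2-fold calls (1344 to 1743), CLE12p with ABA against CLE12p with ACC (4039 to 5458), calls shared in the same direction (2774 to 3393) and solvent-adjusted calls (1820 to 3606, and 3224 with the controls exchanged) stayed within 1.5 times the values reported. The 253 genes called for the difference with CLE12p became 433 without a filter, 612 in DESeq2, 525 in a fit of the compared libraries alone, and 11 to 491 without single libraries. The 314 genes moved in opposite directions became 605 in such a fit, 554 with the controls pooled, and 195 to 295 without single libraries. The median of the called genes with CLE12p, 0.47, was 1.34 among calls of 2-fold or more and 1.90 among the 200 genes with the smallest p, and 0.448 to 0.566 without single libraries. The cause of these shifts was not tested. Named genes kept their direction in all 156 settings and their call in 143.

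Replicate numbers are shared between groups, but deviations of same-numbered ABA and ACC libraries correlated at only -0.021 to 0.030, so the numbers were not taken as pairs. With the number as a replicate block there were 5342 calls for ABA against ACC, 160 for the difference with CLE12p and 287 opposed genes.

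Depth limits the genes with few reads: under 1 CPM 9.82% of genes were called, and none below a 2-fold change.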
